A study of Danio rerio with 6 samples.

Results

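The genes described here encode 9 proteins that recognise the ends of introns when the spliceosome first assembles: the U1 snRNP proteins *snrnp70*, *snrpa*, *snrpc* and *prpf39*, the U2AF subunits *u2af1*, *u2af2a* and *u2af2b*, and the 3′ splice site factors *rbm17* and *puf60a*. They were taken by gene symbol from a deposited table of 21769 genes, in which each of the 9 symbols had 1 gene ID. The table comes from RNA-seq of AB strain zebrafish (*Danio rerio*) embryos aged 36 hpf (hours post fertilization): 3 wild-type sibling libraries and 3 *dhx38* mutant libraries. The gene *dhx38* codes for an RNA helicase of the spliceosome with a DEAH box. The titles of all mutant libraries read dhx38--, the genotype field reads dhx38-- in replicate 1 and dhx38-/- in replicates 2 and 3, and the labels do not describe the lesion, how many embryos were pooled or whether the replicates were separate clutches. What the p-values capture is thus the spread among these 6 libraries, which may be technical.

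Splicing starts when U1 snRNP, an RNA-protein particle, pairs with the 5′ splice site of an intron. U2AF, a heterodimer of a large and a small subunit, binds the polypyrimidine tract and the AG at the other end of the intron and helps to bring in U2 snRNP, whose SF3A and SF3B proteins hold it at the branch point. The product of *dhx38*, known as Prp16 in yeast, acts much later, when the spliceosome is remodelled between the catalytic steps.

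Values are normalized CPM, the read count of a gene relative to all reads of its library after a scaling by the authors, and they are not divided by transcript length. Fold changes are on the scale of log2(normalized CPM + 1), and a gene was called at a limma Benjamini-Hochberg adjusted p under 0.05 over all 21769 genes. Depth read from the smallest steps of the values was about 34.7, 36.5 and 20.05 M reads in sibling replicates 1, 2 and 3. It was about 32.1, 37.7 and 19.5 M in the mutants, and the 9 genes had between 601 and 14261 reads in a library. *dhx38* itself stood at 33.8, 33.8 and 27.3 normalized CPM in sibling replicates 1, 2 and 3 and at 57.2, 90.4 and 53.1 in the mutants (log2 fold change 1.03, SE 0.22, limma adjusted p = 0.0630, and 0.00664 with the replicate number as a block). On the first principal component, which carried 48.9% of the variance, mutant replicate 1 (-2.01) lay between the siblings (-35.1 to -19.0) and mutant replicates 2 and 3 (43.8 and 40.9). The tissue is labelled tail, and trunk in the extraction protocol. All 10 tail and trunk markers and all 8 head and eye markers examined averaged at least 1 normalized CPM. The forebrain gene *foxg1a* was at 27.4 to 31.4 in siblings and 15.6 to 22.5 in mutants, so head transcripts were present. The summed head and eye markers were 846, 763 and 570 normalized CPM in siblings and 723, 334 and 282 in mutants, and the tail and trunk markers 6538 to 7092 and 4926 to 5984. The abundant lens gene *crybb1* made up 546 of the 846 in sibling replicate 1, and the muscle gene *mylpfa* made up 4864 of the 7092. The markers did not all move one way: *rx1* of the head list and *tbxta* and *hoxc13a* of the tail list had log2 fold changes of 0.37, 0.28 and 0.08, and the other 7 and 8 were negative. The part of this shift in the results below was not tested. In such bulk RNA, a change in the number of cells and a change in the RNA per cell cannot be told apart.

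The levels of 6 of the 9 genes, among them *snrnp70*, *snrpa*, *snrpc* and *u2af1*, overlapped between mutants and siblings, as did those of most of the 21769 genes. The largest difference was that of *u2af2a*, 1 of 2 zebrafish genes for the large U2AF subunit, which stood 1.41-fold higher in mutants, while its paralog *u2af2b* had a log2 fold change of -0.07. Of the 9 genes, 0 were called by limma in the fit without a block, where 1.7% of all genes were called (1.41% higher and 0.285% lower in mutants), and 1 (*u2af2a*) was at an unadjusted p under 0.05, as were 20.9% of all genes. With the replicate block 1 of 9 was called, *u2af2a*, against 13.7% of all genes (6.85% higher and 6.87% lower). The groups did not overlap in 3 of 9, *prpf39*, *u2af2a* and *rbm17*, all higher in mutants. Over all 21769 genes, 2887 (13.3%) did not overlap with mutants higher and 3014 with mutants lower. All 9 belong to the 5312 genes with a mean of at least 30 normalized CPM. Of those genes, 1030 did not overlap with mutants higher and 810 with mutants lower. With the block limma called 525 of them higher and 373 lower. Without it 760 were higher and 560 lower at an unadjusted p under 0.05. The median log2 fold change of the 9 was 0.04, beside -0.01 over all genes and 0.03 over those 5312 genes. The absolute log2 fold change of 7 of the 9 was below the median of those 5312 genes, 0.22.

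**Figure D1:**
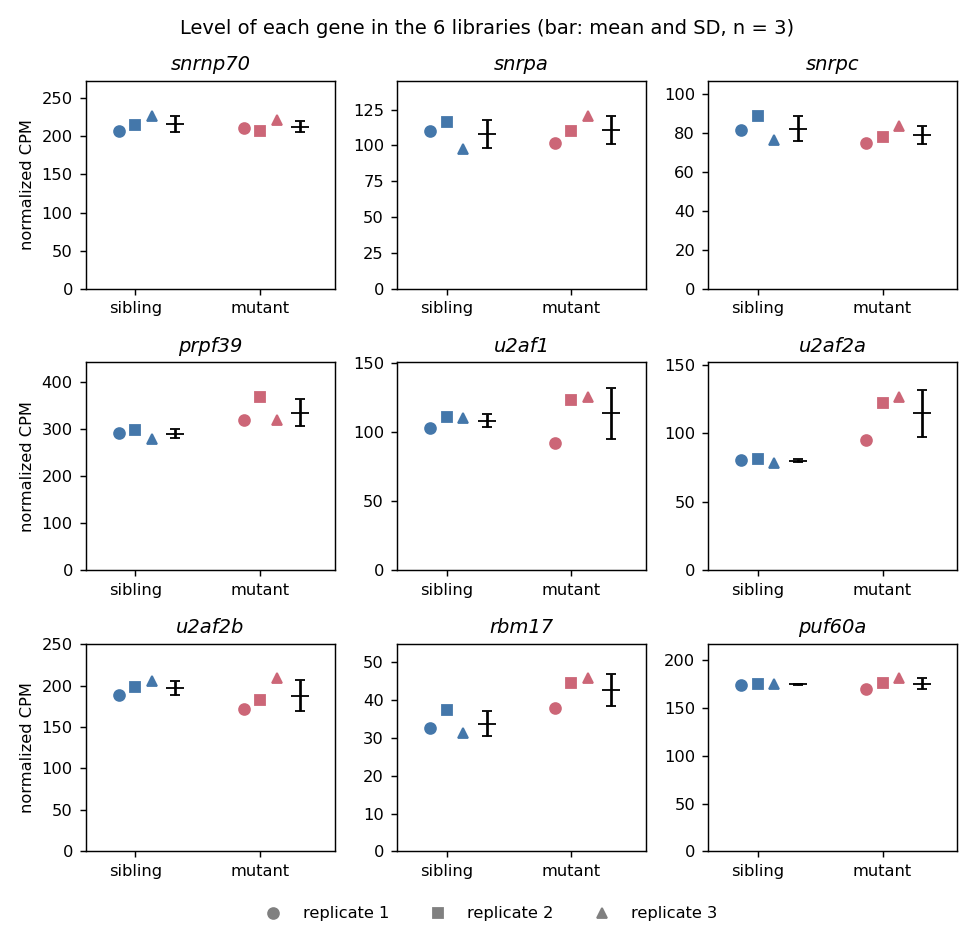
Normalized CPM of the 9 genes in each library, 1 gene per panel on its own linear axis from 0; blue points are the 3 sibling and red points the 3 mutant libraries, the marker shape is the replicate number, and the black bar is the mean with its SD (n = 3). The points of *u2af2a*, *prpf39* and *rbm17* do not overlap between groups, and those of the other 6 genes do.

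Among the U1 proteins, *snrnp70* encodes U1-70K, which binds the first stem-loop of U1 snRNA. *snrnp70* (ENSDARG00000077126, chromosome 3, plus strand) was at 207, 214 and 227 normalized CPM in sibling replicates 1, 2 and 3, and at 211, 207 and 221 in the mutants. The mutant libraries lay within the range of the siblings. The log2 fold change was -0.02 (SE 0.13, 95% interval -0.32 to 0.27, limma adjusted p = 0.946), an interval that runs from 0.803 to 1.21 of the sibling level.

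*snrpa* encodes the A protein of U1, which binds the second stem-loop. *snrpa* (ENSDARG00000018890, chromosome 18, minus strand) was at 110, 116 and 97.5 normalized CPM in siblings and at 101, 110 and 121 in mutants. The groups overlapped, and the order of the replicates was opposite in part: replicate 3 was the lowest sibling and the highest mutant. *snrpc* encodes the C protein of U1, a zinc finger protein that stabilises the pairing of U1 snRNA with the 5′ splice site. *snrpc* (ENSDARG00000009871, chromosome 6, minus strand) showed the same arrangement, at 81.6, 89.0 and 76.5 in siblings and 74.9, 78.2 and 83.9 in mutants. Mutant minus sibling within same-number pairs 1, 2 and 3 was -0.12, -0.08 and 0.31 on the log2 scale for *snrpa*. The corresponding differences for *snrpc* were -0.12, -0.19 and 0.13. The log2 fold change was 0.04 for *snrpa* (95% interval -0.29 to 0.37, limma adjusted p = 0.912) and -0.06 for *snrpc* (-0.37 to 0.25, limma adjusted p = 0.849).

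*prpf39* encodes a U1-associated protein, known from yeast as a stable component of U1 snRNP and from mammals as an auxiliary factor. *prpf39* (ENSDARG00000100209, chromosome 20, minus strand) was at 292, 299 and 280 normalized CPM in siblings and at 319, 369 and 319 in mutants. Each mutant library was above each sibling library, and replicate 2 was the highest in both groups. The log2 fold change of 0.20 (SE 0.13, 95% interval -0.10 to 0.51) did not pass (limma adjusted p = 0.427, and 0.309 with the replicate block).

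The small subunit of U2AF, which reads the AG at the 3′ splice site, is encoded by *u2af1*. *u2af1* (ENSDARG00000015325, chromosome 9, minus strand) was at 103, 111 and 110 normalized CPM in siblings and at 92.0, 123 and 125 in mutants. Mutant replicate 1 was below every sibling library and mutant replicates 2 and 3 were above every one. The SD was 4.58 in siblings and 18.5 in mutants. Its log2 fold change was 0.06 (SE 0.16, 95% interval -0.31 to 0.42, limma adjusted p = 0.882), and without mutant replicate 1 it was 0.20 (limma adjusted p = 0.407).

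The large subunit, which binds the polypyrimidine tract, has the paralogs *u2af2a* and *u2af2b* in zebrafish. *u2af2a* (ENSDARG00000012505, chromosome 16, plus strand) was at 80.3, 81.2 and 78.6 normalized CPM in siblings and at 94.7, 122 and 126 in mutants. The siblings agreed closely (80.1 ± 1.34, SD, n = 3), while the mutants were spread (114 ± 17.3, SD, n = 3) with replicate 1 the lowest and still above the siblings. Replicate 1 was also the mutant nearest to the siblings on the first principal component, and the part of this in the spread was not tested. The difference was positive in all 3 same-number pairs, at 0.23, 0.58 and 0.68 on the log2 scale.

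The log2 fold change of *u2af2a* was 0.50 (SE 0.15, 95% interval 0.15 to 0.85), larger in size than 84.9% of all genes. It missed the threshold without a block (limma adjusted p = 0.128), and passed when the replicate number was a block (limma adjusted p = 0.0483) and without mutant replicate 1 (log2 fold change 0.63, limma adjusted p = 0.04, in a fit that called 7.95% of all genes). A pseudocount of 0.1 together with the block ended the call (limma adjusted p = 0.132), while the log2 fold change stayed at 0.50. That fit called 169 of all genes, beside 2986 with the block alone.

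*u2af2b* (ENSDARG00000011740, chromosome 19, minus strand) was at 188, 198 and 205 normalized CPM in siblings and at 172, 183 and 209 in mutants. The groups overlapped, with mutant replicates 1 and 2 below and replicate 3 above all siblings. On average the difference was a log2 fold change of -0.07 (SE 0.14, 95% interval -0.39 to 0.24, limma adjusted p = 0.806).

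**Figure D2:**
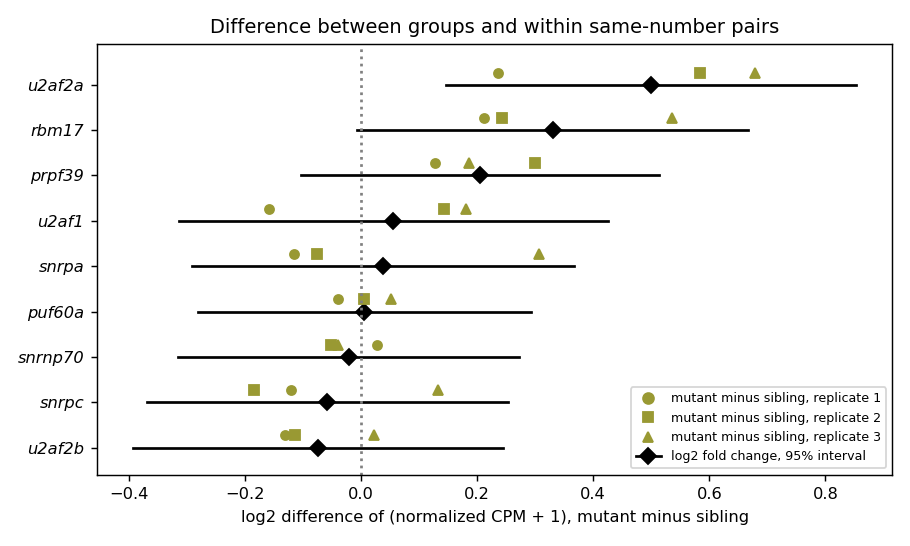
For each of the 9 genes, the log2 fold change of mutants against siblings (black diamond) with its 95% interval from limma (line), and the mutant minus sibling difference within each same-number pair (olive markers), all as differences of log2(normalized CPM + 1). The interval excludes 0 for *u2af2a* alone before adjustment, and the differences of *u2af2a*, *rbm17* and *prpf39* are positive in all 3 pairs.

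The balance between the paralogs was compared within each library, where the library scaling cancels. *u2af2b* supplied 70.1%, 70.9% and 72.3% of the summed normalized CPM of both genes in siblings and 64.4%, 59.9% and 62.3% in mutants. Since the values are not per transcript length, these are shares of reads and not of transcripts. The mean was 71.1% ± 1.14 in siblings and 62.2% ± 2.25 in mutants (SD, n = 3 per group), a difference of -8.89 percentage points. The groups did not overlap, but an exact two-sided permutation test of 3 against 3 libraries gave p = 0.1, the smallest it allows. The difference was -5.64, -11.0 and -10.1 percentage points in pairs 1, 2 and 3. Reads that fit both paralogs were not examined, and how the authors' counting assigned them is not given in the sources used here.

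The log2 ratio of *u2af1* to the summed large subunit genes was -1.36 ± 0.03 in siblings and -1.42 ± 0.11 in mutants (SD, n = 3 per group). It differed by -0.06, less than the spread of the mutants (exact two-sided permutation test, p = 0.5).

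**Figure D3:**
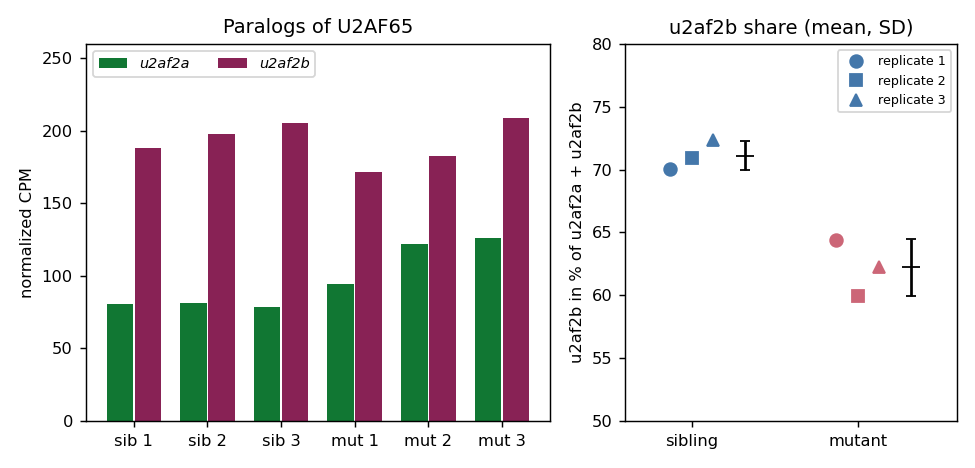
Left, normalized CPM of *u2af2a* (green) and *u2af2b* (purple) in the 6 libraries, as bars from 0. Right, *u2af2b* as a percentage of the sum of both in each library, with the mean and SD (n = 3) in black and an axis that runs from 50 to 80; the siblings sit between 70.1% and 72.3% and the mutants between 59.9% and 64.4%.

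*puf60a* encodes a homologue of human PUF60, a polypyrimidine tract protein related to the large U2AF subunit. *puf60a* (ENSDARG00000032175, chromosome 2, minus strand) was at 174, 175 and 174 normalized CPM in siblings and at 169, 176 and 181 in mutants. The siblings were nearly identical and lay inside the mutant range. Its log2 fold change of 0.01 was the smallest in size of the 9 (SE 0.12, 95% interval -0.28 to 0.29, limma adjusted p = 0.987).

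*rbm17* encodes SPF45, a splicing factor whose U2AF homology motif binds partners at the 3′ splice site. *rbm17* (ENSDARG00000031346, chromosome 4, minus strand) was at 32.6, 37.4 and 31.2 normalized CPM in siblings and at 37.9, 44.5 and 45.7 in mutants. The lowest mutant, replicate 1, was just above the highest sibling, replicate 2, and the difference was positive in all 3 pairs, at 0.21, 0.24 and 0.54 on the log2 scale. A log2 fold change of 0.33 (SE 0.15, 95% interval -0.01 to 0.67) did not pass (limma adjusted p = 0.246, and 0.133 with the replicate block).

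The signed difference varied with the pair number in these genes. With its sign, the mutant minus sibling difference was lower in pair 1 than in both other pairs for 7 of the 9 genes. It was highest in pair 3 for 7 of the 9. The median of the 9 was -0.04, 0.01 and 0.18 in pairs 1, 2 and 3, beside -0.02, 0.05 and 0.08 over the 5312 genes with a mean of at least 30 normalized CPM. Both medians rose from pair 1 to pair 3. Over all 21769 genes the median was -0.0095, -0.0082 and 0. The summed normalized CPM of a library also differed, at about 1000220, 986093 and 1040900 in sibling replicates 1, 2 and 3. It was about 935758, 975127 and 1067460 in the mutants, and the part of these totals in the pair differences was not tested. The shares of all genes with these orders were not counted, so the counts are not shown to be particular to the 9.

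Other proteins of intron recognition were examined as lists. Of 8 measured genes for other U1-associated and 5′ splice site proteins, 1 rose, 0 fell and 7 did not pass with limma, with a median log2 fold change of 0.02. The 1 that rose was *luc7l*, a homologue of a yeast U1 snRNP protein, at 256, 270 and 208 normalized CPM in siblings and 439, 665 and 513 in mutants (log2 fold change 1.12, SE 0.19, limma adjusted p = 0.0352). The counts were the same with the replicate block. Of all genes, limma called 1.41% higher without the block and 6.85% with it.

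Of 18 genes for other branch point and 3′ splice site proteins, 0 were called by limma (5 higher and 0 lower at an unadjusted p under 0.05), with a median of 0.06. Of all 21769 genes, 2212 were higher and 2334 lower at that unadjusted p. The smallest p belonged to *smndc1*, the splicing factor SPF30, at 65, 64.8 and 65.6 normalized CPM in siblings and 85.7, 129 and 124 in mutants (log2 fold change 0.76, limma adjusted p = 0.0760). The fit with the block called 5 of the 18, all higher in mutants, *smndc1* among them (limma adjusted p = 0.0176). That fit called 6.85% of all genes higher.

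Introns of the minor class are recognised by a U11/U12 particle in place of U1 and U2. Of 9 genes for its proteins and for minor intron recognition, 0 were called by limma (2 higher and 2 lower at an unadjusted p under 0.05), with a median of -0.12. The smallest p belonged to *zmat5*, a zinc finger protein of that particle, at 5.61, 5.78 and 7.42 normalized CPM in siblings and 8.61, 16.7 and 18.5 in mutants (log2 fold change 1.04, limma adjusted p = 0.0886). In the fit with the block 1 rose, *zmat5* (limma adjusted p = 0.00949), and 1 fell, *snrnp25*, which codes for a U11 protein. *snrnp25* was at 9.84, 8.83 and 7.16 in siblings and 5.46, 2.40 and 4.81 in mutants. Of all genes, 6.85% were called higher and 6.87% lower in that fit.

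The SF3A and SF3B genes, whose proteins act directly after U2AF, differed more. All 10 had a positive log2 fold change, with a median of 0.75, and the groups did not overlap in 9 of 10, each higher in mutants. Over all genes, 13.3% did not overlap in that direction, and 1030 of the 5312 genes with a mean of at least 30 normalized CPM did not. With limma 2 rose and 0 fell, and with the replicate block 7 rose and 0 fell. The shares of all genes called higher were 1.41% without the block and 6.85% with it. *sf3a2* was at 132, 127 and 109 normalized CPM in siblings and 272, 482 and 352 in mutants (log2 fold change 1.54, SE 0.22, limma adjusted p = 0.0213). *sf3a3* was at 73.4, 71.1 and 79.4 in siblings and 129, 198 and 208 in mutants (1.21, SE 0.20, limma adjusted p = 0.0316). The largest log2 fold change among the 9 U1 and U2AF genes, 0.50 in *u2af2a*, was below the SF3A and SF3B median. The difference between the lists was not tested.

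**Figure D4:**
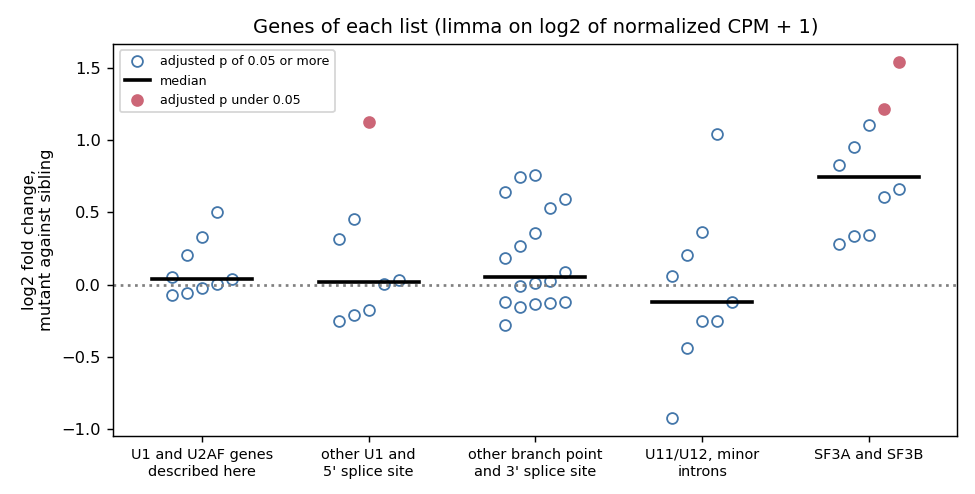
Log2 fold change of mutants against siblings for each measured gene of the 9 described here and of the 4 other lists; filled red points passed the adjusted threshold without a block, open blue points did not, and the black line is the list median. The medians are 0.04 for the U1 and U2AF genes and 0.75 for SF3A and SF3B.

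The genes most like *u2af2a* across the 6 libraries were *inavaa*, *insra*, which encodes an insulin receptor, and *tbp*, the TATA-binding protein. Candidates were 5336 genes within 4-fold of the level of *u2af2a*, after symbols of a clone or locus form were left out. That filter also removed some ordinary symbols, such as those that begin with fo or cu, so closer genes may have been missed. Likeness was the mean absolute difference of log2(normalized CPM + 1), after subtraction of each gene's sibling mean. That difference was 0.03 for *inavaa*, 0.03 for *insra* and 0.04 for *tbp*. *tbp* was at 26.7, 25.3 and 25.4 normalized CPM in siblings and 30.4, 39.0 and 38.8 in mutants (log2 fold change 0.46, limma adjusted p = 0.140). Replicate 1 was its lowest mutant as in *u2af2a*, and such likeness follows from how *tbp* was chosen. *puf60a* was most like *prkab1b*, *snx1a* and *tm9sf2*, each with a mean absolute difference of 0.02 and log2 fold changes of 0.01, 0.02 and 0.03.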

How the data were processed

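RNA-seq libraries of 3 wild-type siblings and 3 *dhx38* mutants were grouped and numbered by their titles. The deposited signal is a normalized CPM per gene, per the file headers, with 2 decimals and with a different total in each library. Named in the submitters' processing notes are the build GRCz11 and the tools fastp, STAR, featureCounts and edgeR, without versions or roles. The sources used here give no scaling factors, gene filter or strand setting. Without the last, it is not known whether the counting separated reads from overlapping genes and from antisense partners. The value of 1 read was estimated from the spacing of the values, and 99.99% to 100% of values per library lay within 0.0055 of a whole number of reads. In every library that tolerance is more than 0.1 of a read, the limit set for using recovered reads as counts. Count tests were therefore not run, and read numbers are estimates. The larger table gives chromosome and strand but no start and end. All 9 gene IDs were found in the Ensembl name table, where both large U2AF subunit genes are named U2AF2. A second deposited table, whose name marks its genes as significantly different, repeats 956 of the rows. None of these rows is from the 9 genes, *u2af2a* included, and that table was not used.

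Log2(value + 1) was tested with limma 3.58.1 in R 4.3.3 over all 21769 genes, without a filter, adjusted by Benjamini-Hochberg. The default limma settings draw the variance of each gene toward a value shared over all genes, low-value genes included. The fit without a block was tried on simulated data with independent libraries, and the fit with the block was not. Single ratios had exact permutation tests. Deviations from group means correlated between same-number libraries with r of 0.448, 0.430 and 0.567, over the bound of 0.1. Other pairs ran from -0.459 to 0.134, and the highest, sibling replicate 2 with mutant replicate 1, was over that bound too. Replicate 3 had the lowest depth in both groups, and the part of depth in these correlations was not tested. The numbers were taken to pair the libraries, from the data and not from the labels. Fits with the block thus rest on pairs read from the same values that they test. The members, lists and tests were chosen with earlier results of these data known, and the set of genes with a mean of at least 30 after values were seen. Genes named besides the 9 were *dhx38*, in each list the 2 called genes with the smallest p or else the 1 with the smallest p, and the 3 most similar to each of the members with the largest and the smallest change. *snrnp25* was named after its values were seen. List symbols not matched in the table (4) were left out.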

Additional observations from a re-analysis of the deposited data

How the results depend on the processing

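Of the 9 genes 0 were called without a block, and 1 (*u2af2a*) with the replicate block. Leaving out single libraries gave 0 to 1, the 1 being *u2af2a* without mutant replicate 1. The 370 genes called among all became 205 with a pseudocount of 0.1, 2986 with the replicate block, 169 with that block and a pseudocount of 0.1, and 41 at an adjusted p under 0.01. Leaving out single libraries gave 31 to 1731. The cause was not tested. The share of higher calls was 83.2%, 92.7% with a pseudocount of 0.1, 92.3% with that and the block, and 49.9% with the block. Leaving out single libraries moved the log2 fold change across 0 in *snrnp70* (-0.0531 to 0.0150), *snrpa* (-0.0330 to 0.0990), *u2af1* (-0.0229 to 0.198) and *puf60a* (-0.0175 to 0.0301), so no direction is given for these. *prpf39* (0.13 to 0.24), *u2af2a* (0.42 to 0.63) and *rbm17* (0.28 to 0.41) stayed positive in these fits, and *u2af2b* (-0.153 to -0.0120) and *snrpc* (-0.109 to -0.00110) stayed negative but came close to 0, without mutant replicate 1 and sibling replicate 2 respectively. A low-value filter, centring and a variance trend changed no call among the 9. The count tests planned with edgeR and DESeq2 were not run. For the *u2af2b* share, the paired exact sign-flip test gave p = 0.25, the smallest 3 pairs allow. When single libraries were left out, the difference in this share was -10.0 to -7.75 percentage points. The difference in the log2 subunit ratio was -0.117 to -0.00734, the latter without mutant replicate 1. The narrowest 95% interval of the 9, that of *puf60a*, ran from -0.28 to 0.29 and was not adjusted for the number of genes. *puf60a* itself had SDs of 0.49 in siblings and 5.81 in mutants, around means of 174 and 175 normalized CPM. The width of the interval thus rests largely on the variance that limma shares over all genes. In this fit of 3 libraries per group, differences within the interval could not be told from 0. The interval is not the limit for a call: *u2af2a*, at a log2 fold change of 0.50, was not called without a block (limma adjusted p = 0.128).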

Other observations

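Several genes of intron recognition have a paralog or another gene of the same family in zebrafish, and the values below were chosen after they were seen. *puf60b*, the paralog of *puf60a*, was at 194, 195 and 198 normalized CPM in siblings and 176, 173 and 192 in mutants, so each mutant library was below each sibling library (log2 fold change -0.12, limma adjusted p = 0.649). *rbm39a*, which encodes a protein related to the large U2AF subunit, was at 169, 174 and 178 in siblings and 210, 275 and 272 in mutants (log2 fold change 0.53, limma adjusted p = 0.112, and 0.0359 with the replicate block). Its paralog *rbm39b* was at 81.0, 78.8 and 78.2 in siblings and 86.0, 101 and 102 in mutants (0.27, limma adjusted p = 0.297, and 0.203 with the block). *ddx39b*, for the U2AF-associated helicase UAP56, was at 42.3, 35.5 and 42.7 in siblings and 54.8, 68.9 and 82.3 in mutants (0.74, limma adjusted p = 0.0797, and 0.0192 with the block), while *ddx39ab*, which encodes a related helicase, was at 523, 567 and 541 in siblings and 480, 487 and 523 in mutants (-0.13, limma adjusted p = 0.613). *ddx39aa*, of the same helicase family, had a log2 fold change of -0.12 (limma adjusted p = 0.685), near that of *ddx39ab*. *rbm25a* and *rbm25b* had log2 fold changes of -0.18 and 0.03 (limma adjusted p = 0.691 and 0.919). Whether related genes differed from each other was not tested in these cases.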
